A study of Mus musculus with 8 samples.

Results

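The COP9 signalosome is a protein complex built from the products of the 10 genes Cops2, Cops3, Cops4, Cops5, Cops6, Cops7a, Cops7b, Cops8, Cops9 and Gps1, and its mRNAs were followed in neural stem and progenitor cells with and without deletion of Ash2l. The 10 genes were taken by symbol from the 55385 genes listed, with no threshold on their values, and all 10 passed the filter on low values. The complex was selected on the TPM and fold changes of this very contrast, above all those of Cops9, so every count and fold change of this contrast is given as a description. The cells were NSPCs sorted from mouse cortex at postnatal day 7 (P7). In the iKO group were 4 libraries from mice with Nestin-CreERT2, Ash2l f/f and a tdTomato reporter. The WT group had 4 libraries from mice with Nestin-CreERT2 and tdTomato but no floxed Ash2l, so both groups carried the inducible recombinase and the reporter. CreERT2 is a recombinase that acts after it is given its drug ligand, and the Nestin promoter directs it to neural stem and progenitor cells. The timing of induction is not given in the sources used here. The design calls the libraries biological replicates without tying each to an animal, and part of the spread that p-values rest on may be technical.

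The signalosome removes the small protein NEDD8 from cullins, the scaffolds of the largest family of ubiquitin ligases, and this removal lets the ligases exchange the receptors that pick their substrates. COPS5 holds the metalloprotease site and pairs with COPS6, which has a related fold but no active site. GPS1, also called COPS1, and COPS2, COPS3, COPS4, COPS7A or COPS7B, and COPS8 share a scaffold domain named PCI, and COPS9 is a short acidic subunit. Most subunits of the proteasome lid and some of the translation factor eIF3 are built on the same 2 kinds of domain. In the developing nervous system, cullin ligases control the turnover of cell cycle and signalling proteins.

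Values are TPM, shares of all transcripts per 1000000 after scaling for transcript length, so levels of different genes can be compared as far as that scaling holds. The depth of each library is unknown. Ash2l, the targeted gene, stood at 7.54, 6.11, 7.69 and 7.18 TPM in iKO replicates 1 to 4 and at 18.1, 16.1, 19.2 and 17.2 TPM in WT replicates 1 to 4. Libraries correlated at 0.9871 to 0.9897 within groups and at 0.9623 to 0.9645 between groups. All 8 markers of neural stem cells and radial glia were present in every library, with summed levels of 3211 to 3288 TPM (iKO) and 3787 to 3877 TPM (WT). Of these 8, limma called 2 higher, Nes and Fabp7, and 3 lower, Slc1a3, Vim and Prom1 (20.7% and 31.9% of all tested genes were called higher and lower). Slc1a3 alone went from 2039 to 1241 TPM, and without it the sum of the other 7 was 2010 to 2030 TPM in iKO against 1767 to 1796 TPM in WT. Markers of the other cell types looked for were present too, and every list's summed range was apart between the groups. The 5 endothelial markers were all called higher in iKO (summed 676 to 717.9 TPM against 373.6 to 385 TPM), as were the 3 blood markers (623.7 to 782.7 TPM against 29.4 to 39.87 TPM). Of 5 microglia markers, 4 were called lower (123.3 to 130.9 TPM against 183 to 193.6 TPM). Summed levels were also higher in iKO for 4 mature neuron markers (163.5 to 168.4 against 103.7 to 116.1 TPM), 3 pericyte markers (503.2 to 524.9 against 403.1 to 427.1 TPM) and 5 oligodendrocyte lineage markers (244.6 to 261.1 against 221.5 to 228.3 TPM). They were lower for 5 astrocyte markers (2536 to 2658 against 2980 to 3062 TPM) and 5 neuroblast markers (1093 to 1137 against 1232 to 1269 TPM). Members of a list did not all follow its sum. By limma, 1 pericyte marker was called higher and 2 lower, and 2 oligodendrocyte lineage markers higher and 3 lower. For neuroblasts 3 were called higher and 2 lower, for astrocytes 1 and 3, and for mature neurons 2 and 1. None of these markers was at 0 in any library. A score of Y-linked genes against Xist also separated the groups, at -0.824 to -0.262 in iKO and 0.565 to 1.011 in WT. The part of cell makeup or of the sex of the animals in the differences below was not tested beyond a fit with that score. In sorted bulk cells, fewer cells of a type and less RNA per cell cannot be told apart.

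Cops9 mRNA was 6.06-fold lower in iKO than in WT, while 5 of the other subunit mRNAs were higher by 14.7% to 45.4% and 4 were called neither higher nor lower. Here a gene is called when limma's test on log2(TPM + 1), adjusted by Benjamini-Hochberg over all 16413 genes tested, gave a p under 0.05. Of the 10 subunits 6 were called in either direction, against 52.6% of all tested genes: 5 were called higher, against 20.7%, and 1 was called lower, against 31.9%. The same 6 genes had groups that did not overlap (49.2% of all tested genes), 5 with iKO above WT (19.2%) and 1 with iKO below (29.9%). The authors' deposited table called 6 subunits higher, Gps1 being the sixth, and 1 lower, against 27.9% and 26.1% of the tested genes (53.9% in either direction). With the sex score as a covariate in limma's fit, 0 subunits were called higher (1, Cops6, at an unadjusted p under 0.05; log2 fold change 0.443, adjusted p = 0.0689) and Cops9 was still called lower (-2.566, adjusted p = 0.0186). The targeted gene Ash2l was itself not called in that fit (-1.069, adjusted p = 0.142). The fit called 195 genes higher and 228 lower in all, and as the score separates the groups completely, sex and genotype can hardly be told apart. The median log2 fold change of the 10 subunits was 0.13, and that of all tested genes was -0.06. The rule chose the complex on this contrast, so nothing is read from these shares. The direction of calls over all genes depended on scaling: 39.3% of 8629 called genes were higher in iKO. That share was 51.1% of 8506 genes under scaling by trimmed mean factors, 49.7% of 8408 under quantile normalization, and 51.3% of 8379 once a trend with length and GC content was subtracted. The authors' deposited table, with another input, test and gene set (50.6% of 9969 called genes higher), is no comparison of scaling alone. Trimmed mean factors moved the median of all genes from -0.06 to 0.00.

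**Figure D1:**
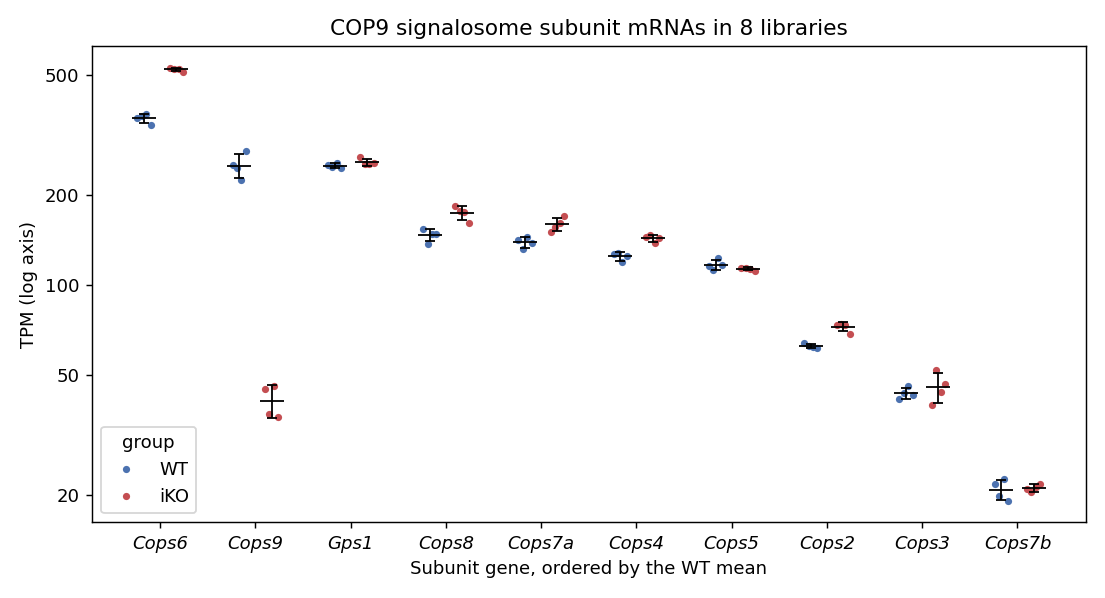
TPM on a log axis for each subunit gene in the 4 WT (blue) and 4 iKO (red) libraries, with black bars for the mean and SD. Cops9 drops from a mean of 250.0 TPM in WT to 41.2 TPM in iKO, and Cops6 rises from 359.4 to 522.5 TPM.

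Cops9 (ENSMUSG00000073616.10, chromosome 1) encodes the short acidic subunit, of 57 residues. It stood at 45.2, 37.2, 46.0 and 36.5 TPM in iKO replicates 1 to 4. In WT replicates 1 to 4 it stood at 251.1, 246.2, 223.8 and 278.9 TPM. All iKO values lay far below all WT values. The means were 41.2 ± 5.1 TPM in iKO against 250.0 ± 22.6 TPM in WT (SD, n = 4), a log2 fold change of -2.57 (SE 0.0924). Only 30 of the 16413 tested genes had a lower log2 fold change.

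The authors' deposited table gave Cops9 a smaller fall, -2.22 on the log2 scale with a standard error of 0.107. In the authors' deposited table its mean normalized signal was 223.3, the lowest of the 10 subunits, although its mean TPM over the 8 libraries was 145.6. That is 1.53 units of signal per TPM, against 8.47 to 26.4 for the other 9 subunits. The Cops9 transcript used for length has 438 nt, and those of the others have 1646 to 5383 nt. Each TPM of Cops9 thus had less of the authors' normalized signal behind it than each TPM of another subunit.

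The promoters of Cops9, Cops7a and Cops6 are shown because Cops9 fell furthest, Cops6 rose furthest, and Cops7a rose while sharing with Cops9 a sequence close to its start. ASH2L works with the enzymes that methylate lysine 4 of histone H3, a mark of active promoters; no measurement of that mark was used here. The windows are the 250 bases before the transcript start, 5′ to 3′ on the gene's strand, from RefSeq on GRCm38.p6. The build used by the authors is not given in the sources used here. Capitals mark CCGGAAG on either strand, a core sequence bound by ETS family factors, which was chosen after the sequences had been seen.
Cops9 promoter, chr1:92641986-92642235, minus strand: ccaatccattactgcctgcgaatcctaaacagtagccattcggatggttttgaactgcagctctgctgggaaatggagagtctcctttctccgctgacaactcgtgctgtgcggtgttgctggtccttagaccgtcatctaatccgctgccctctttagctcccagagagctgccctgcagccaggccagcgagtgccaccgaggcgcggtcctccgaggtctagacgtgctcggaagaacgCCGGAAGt
Cops7a promoter, chr6:124965513-124965762, minus strand: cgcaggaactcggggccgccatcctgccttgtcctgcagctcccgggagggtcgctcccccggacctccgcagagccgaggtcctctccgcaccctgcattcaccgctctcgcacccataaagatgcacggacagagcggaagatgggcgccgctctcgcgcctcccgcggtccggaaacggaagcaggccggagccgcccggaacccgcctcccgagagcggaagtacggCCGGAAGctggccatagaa
Cops6 promoter, chr5:138160852-138161101, plus strand: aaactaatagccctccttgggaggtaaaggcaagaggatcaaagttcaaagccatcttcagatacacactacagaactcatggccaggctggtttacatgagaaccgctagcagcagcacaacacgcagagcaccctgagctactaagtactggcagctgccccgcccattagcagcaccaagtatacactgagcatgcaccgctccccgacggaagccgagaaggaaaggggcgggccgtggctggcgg

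The table of promoters held 9 of the 10 subunits, all but Cops5. CCGGAAG (reverse complement CTTCCGG) was in 6 of these 9 windows, those of Cops2, Cops3, Cops7a, Cops8, Cops9 and Gps1, and in 6.91% of all 32851 windows of this length. Its first base lay 8 bases before the start in Cops9, 9 in Cops2 and 19 in Cops7a. It was not in the windows of Cops4, Cops6 and Cops7b. The sequence was chosen after these windows had been seen, so its count of 6 in 9 beside 6.91% is a description and shows no enrichment. Of the 6 genes with it, 3 were called higher, 1 was called lower and 2 were not called, so carriers went in both directions. The windows shown held 16 CG dinucleotides in Cops9, 29 in Cops7a and 10 in Cops6, against a median of 6 over all windows. The nearest tested genes on either side of Cops9 had midpoints 183 kb and 207 kb away. They were Ndufa10, called lower (52.0 TPM in iKO against 58.9 in WT), and Gpc1, not called (33.6 against 32.6 TPM). The authors' deposited table did not call Ndufa10 (log2 fold change -0.0752, adjusted p = 0.407).

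Cops6 and Cops5 encode the paired subunits of the protease module, and their mRNAs went apart. Cops6 (ENSMUSG00000019494.14) stood at 529.6, 524.1, 522.4 and 513.7 TPM in iKO replicates 1 to 4. In WT replicates 1 to 4 it stood at 359.9, 366.6, 370.2 and 341.1 TPM. Each iKO library lay above each WT library. The log2 fold change was 0.54 (SE 0.0257), and 0.557 in the authors' deposited table. Cops6 shares part of its locus with Mcm7 on the opposite strand (129.6 TPM in iKO, 126.6 TPM in WT), and whether the counting used strand is not given in the sources used here. Other genes on the strand opposite to a subunit were Galk2 at Cops2 (26.0 TPM in iKO, 36.5 in WT) and Cspp1 at Cops5 (75.4 and 87.4 TPM). At Cops3 these were Nt5m (3.54 and 5.25 TPM) and Gm16062 (2.42 and 3.30 TPM), and at Cops7a Gm23851, listed at 0 TPM in both groups.

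Cops5 (ENSMUSG00000025917.9), the gene of the catalytic subunit, stood at 114.2, 113.6, 113.4 and 111.2 TPM in iKO replicates 1 to 4. Its WT values were 115.6, 112.2, 123.1 and 116.9 TPM. The groups overlapped, and the log2 fold change was -0.05 with a 95% interval of -0.115 to 0.022, so it was not called. The direction of this small difference reversed with trimmed mean factors (0.023) and in the authors' deposited table (0.041). The Cops6 to Cops5 ratio of TPM, which does not depend on library scaling, was 4.62 ± 0.0122 in iKO and 3.08 ± 0.15 in WT (SD, n = 4). Its iKO values lay within 4.61 to 4.64 and its WT values within 2.92 to 3.27.

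**Figure D2:**
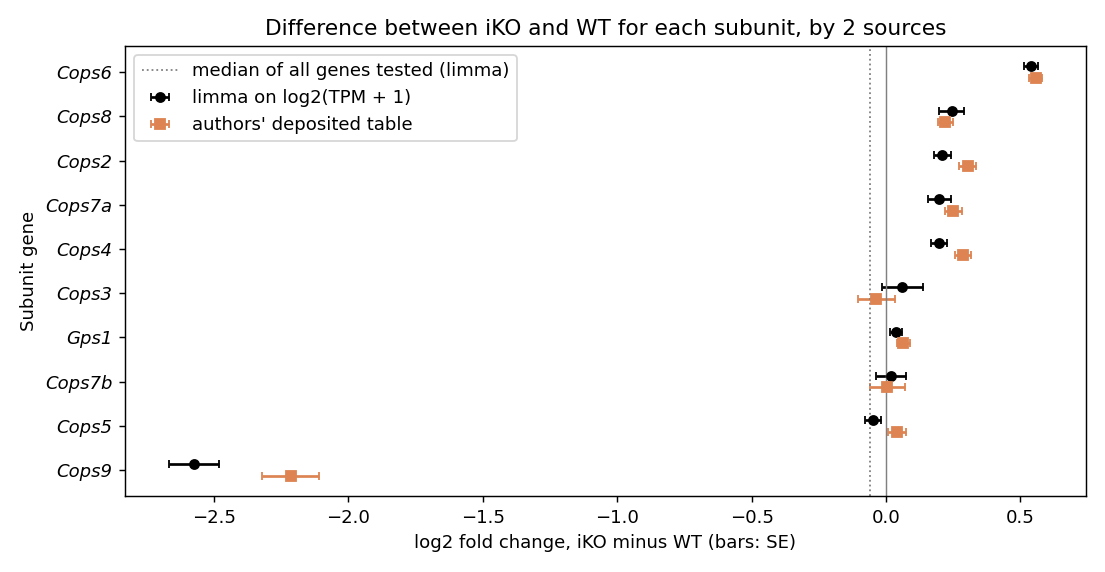
log2 fold change (iKO minus WT) of each subunit from limma on log2(TPM + 1) (black circles) and from the authors' deposited table (orange squares), with bars for the SE. Cops9 lies at -2.57 and -2.22, while the other 9 genes lie between -0.05 and 0.56 in both sources.

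Of the 7 scaffold genes with a PCI domain, 4 were called higher and 3 were not called, where 20.7% of all tested genes were called higher. Fitted beside the sex score, none of these 4 was called. The limma adjusted p was 0.956 for Cops2, 0.604 for Cops4, 0.431 for Cops7a and 0.82 for Cops8. As the score separates the groups completely, that fit can hardly tell sex from genotype, and nothing is concluded from the lost calls. Cops8 (ENSMUSG00000034432.11), the gene of the smallest PCI subunit at 209 residues, stood at 183.2, 176.6, 175.2 and 160.9 TPM in iKO and at 153.9, 137.3, 147.9 and 147.6 TPM in WT. The groups did not overlap, with iKO replicate 4 the nearest to WT. Its log2 fold change was 0.24 (SE 0.0461).

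Cops2 (ENSMUSG00000027206.13), whose product contacts the cullin, stood at 73.8, 74.2, 73.6 and 68.9 TPM in iKO and at 64.1, 62.7, 62.1 and 61.7 TPM in WT. Replicate 4 of iKO lay apart from the other 3 but still above all WT libraries. The log2 fold change was 0.21 (SE 0.0319), and 0.304 in the authors' deposited table. Cops4 (ENSMUSG00000035297.14), whose product takes part in sensing the neddylated ligase, stood at 144.8, 146.4, 137.5 and 143.0 TPM in iKO and at 126.7, 127.9, 119.0 and 124.8 TPM in WT. The groups did not overlap. Its log2 fold change was 0.20 (SE 0.0303).

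Cops7a and Cops7b are paralogs whose products take the same place in the complex. Cops7a (ENSMUSG00000030127.15) stood at 150.7, 156.5, 161.5 and 169.8 TPM in iKO and at 141.5, 131.4, 144.4 and 138.2 TPM in WT. All iKO values were the higher ones, and the log2 fold change was 0.20 (SE 0.0419). Cops7b (ENSMUSG00000026240.12) stood at 21.01, 20.4, 21.2 and 21.8 TPM in iKO and at 21.8, 19.8, 22.6 and 19.2 TPM in WT. Here the WT values spanned the iKO values, and the log2 fold change was 0.02 (95% interval -0.11 to 0.149). The Cops7a to Cops7b ratio was 7.56 ± 0.269 against 6.68 ± 0.365 (SD, n = 4), with 1 WT library, at 7.21, above the lowest iKO library, at 7.17.

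Gps1 and Cops3 were not called. Gps1 (ENSMUSG00000025156.17), the gene of the COPS1 subunit, stood at 266.1, 252.1, 252.1 and 254.8 TPM in iKO and at 251.7, 246.7, 254.7 and 245.3 TPM in WT. The first iKO library was the highest, and the other 7 libraries lay between 245.3 and 254.8 TPM. The log2 fold change of 0.04 (95% interval -0.015 to 0.09) became a call with trimmed mean factors (0.108, limma adjusted p = 0.00443), with the trend on length and GC subtracted (0.076, adjusted p = 0.0217) and in the authors' deposited table (0.065, adjusted p = 0.0205). Cops3 (ENSMUSG00000019373.11) stood at 39.7, 52.2, 44.1 and 46.9 TPM in iKO and at 41.6, 43.8, 46.2 and 42.9 TPM in WT. The iKO libraries enclosed the WT libraries, and the difference of 0.06 (95% interval -0.114 to 0.233) was below 0 without iKO replicate 2 (-0.005).

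The order of levels changed at a single place. In WT, Cops6 was the highest, then Cops9 and Gps1 with overlapping values, then Cops8, Cops7a, Cops4, Cops5, Cops2, Cops3 and Cops7b. Neighbours that overlapped in WT were also Cops8 with Cops7a and Cops4 with Cops5. In iKO, Cops9 stood ninth, overlapping with Cops3, and the other 9 genes kept their WT order. Cops9 held 14.8% to 18.4% of the summed subunit TPM in WT libraries and 2.39% to 2.98% in iKO libraries. Cops6 held 22.5% to 24.5% in WT and 33.6% to 33.8% in iKO.

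**Figure D3:**
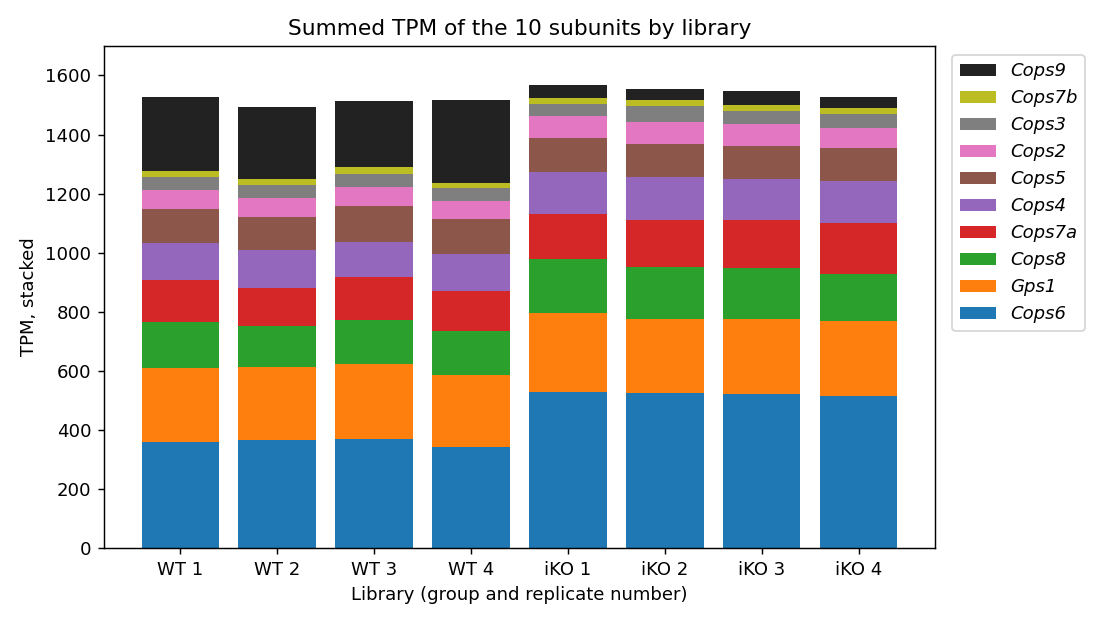
TPM of the 10 subunit genes stacked for each library, with Cops9 in black at the top. The stacks reach 1494 to 1528 TPM in WT and 1527 to 1568 TPM in iKO, with the black segment much shorter in the 4 iKO libraries.

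The sum over all 10 genes was 1549 ± 16.9 TPM in the iKO libraries, against 1513 ± 13.9 TPM in WT (SD, n = 4). The lowest iKO sum, 1527 TPM, lay below the highest WT sum, 1528 TPM, and the log2 ratio of 0.03 was -3e-04 after quantile normalization. Without Cops9 the sum was 1508 ± 14.5 against 1263 ± 24.4 TPM, with ranges of 1491 to 1523 and 1238 to 1290 TPM. That is 19.4% higher in iKO. Cops9, the only subunit called lower, was left out with its fall already known, which favours a higher sum. Most of the rise came from Cops6 alone, whose group means were 522.5 (iKO) and 359.4 (WT) TPM. Of the 9 genes summed, 4 were not called, so no general rise of the remaining subunits is concluded. Of this sum without Cops9, Cops6 held 34.7% ± 0.168 in iKO against 28.4% ± 0.766 in WT (SD, n = 4). Cops5 held 7.5% ± 0.0394 against 9.26% ± 0.276, Gps1 17% ± 0.37 against 19.8% ± 0.0458 and Cops7b 1.4% ± 0.0499 against 1.65% ± 0.0956 (SD, n = 4). Each had ranges that did not overlap. The mRNAs of Cops5, Gps1 and Cops7b were not called, and their shares fall when other subunits take more of the sum. The share of Cops8 (11.5% against 11.6%) overlapped between groups. Within a library, the ratio of Cops9 to Gps1 was 1 ± 0.106 in WT and 0.161 ± 0.0187 in iKO (SD, n = 4).

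Cops9 belonged to the class of genes with the shortest proteins, and differences in that class were spread widely. Among 312 tested genes of proteins of at most 100 residues, 39.7% were called higher and 23.4% lower, at a median log2 fold change of 0.12. In that class 9.29% of genes had a log2 fold change below -1, against 2.37% of genes with over 100 and up to 200 residues, 1.69% with up to 500 and 1.11% with more than 500. Cops9 had the fifth lowest value of the 312. The other subunits have 209 to 526 residues. Among genes with over 200 and up to 500 residues, 25.7% were called higher and 31.7% lower. Gps1, at 526 residues, falls in the class of more than 500, where 13.5% were called higher and 37.8% lower. Subtracting a trend with transcript length and GC content left the log2 fold change of Cops9 at -2.578. That step takes out an average shift and not the wide spread of this class. Nothing about protein length is concluded from it.

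**Figure D4:**
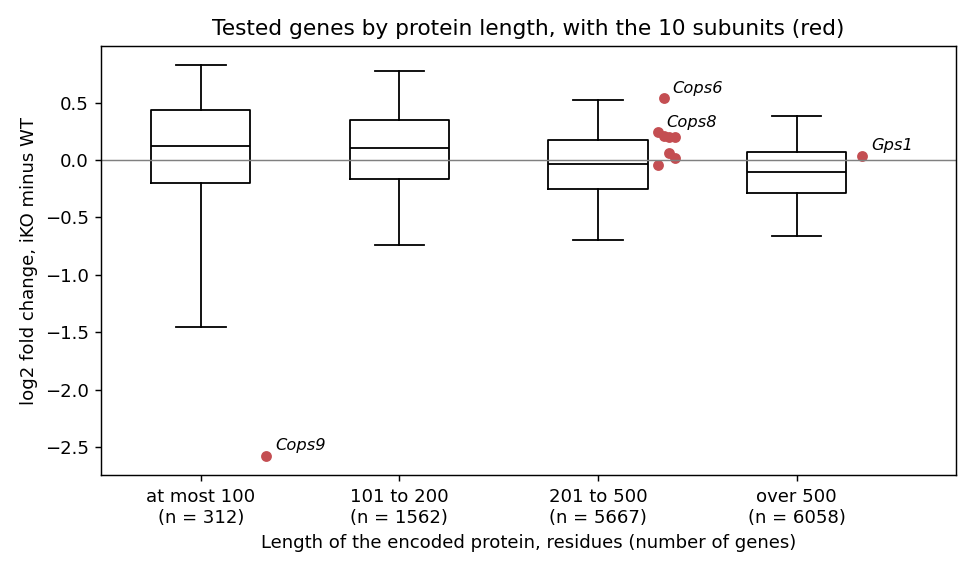
log2 fold change (iKO minus WT) of tested genes by length of the encoded protein, as boxes from the 25th to the 75th percentile with the median and whiskers at the 5th and 95th percentiles, and the 10 subunits in red. The lower whisker of the shortest class reaches -1.46 and Cops9 lies below it at -2.57.

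The 5 genes whose 8 values lay closest to those of Cops9, by distance of log2(TPM + 1) from the WT mean, were Gm3375, Gm20521, Gm10800, Slc10a6 and Klk1b22. All 5 had lower levels than Cops9, with means of 4.17 to 15.8 TPM in WT against 0 to 1.91 TPM in iKO. None belongs to the signalosome. Klk1b22 was listed at 0 in every iKO library. Gm3375 and Slc10a6 averaged 0.607 and 0.124 TPM in iKO, so these genes and Klk1b22 needed their WT values to pass the filter. Adding 1 before the log understates the falls of such low genes, so they lie close to Cops9 on this scale but not in TPM fold. The distance uses the difference between the groups, so the match is a description only.

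The lists around the signalosome are to be read against all tested genes, of which 20.7% were called higher and 31.9% lower at a median of -0.06. Calls of the authors' deposited table are to be read against its own shares of the tested genes, 27.9% higher and 26.1% lower. Of the 28 genes named from these lists by lowest p, all called, 25 were not called with the sex score as covariate. Ddb2, Eif3k and Ip6k1 stayed called. The score separates the groups completely, so sex and genotype can hardly be told apart in that fit. Of 11 cullins and cullin exchange factors, limma called 0 higher (also 0 at an unadjusted p under 0.05) and 6 lower, at a median log2 fold change of -0.20. Cul4a stood at 44.0 ± 1.95 TPM in iKO against 53.8 ± 1.91 TPM in WT, and Cul1, the scaffold of the SCF ligases, at 85.8 ± 6.8 and 103.2 ± 5.14 TPM (SD, n = 4). Glmn, whose product blocks the RING subunit of cullin ligases, stood at 38.2 and 45.0 TPM. Cul4b stood at 7.39 and 8.6 TPM, a call lost with quantile normalization (limma adjusted p = 0.189), with the length and GC trend subtracted (adjusted p = 0.0922) and in the authors' deposited table (adjusted p = 0.156). The exchange factor Cand1 stood at 25.4 and 23.9 TPM and was not called. The authors' deposited table called 2 of these 11 higher and 5 lower, at a median of -0.09.

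Of 15 genes that attach or process NEDD8, 4 were called higher and 1 lower (20.7% and 31.9% of all tested genes), at a median of 0.04. The authors' deposited table called 9 of the 15 higher and 1 lower (27.9% and 26.1% of the tested genes there), at a median of 0.14. Nedd8 itself rose from 288.9 ± 11.4 to 395.1 ± 13.6 TPM (SD, n = 4). Rnf7, the RING subunit that works with cullin 5, rose from 122.6 to 147.3 TPM, the conjugating enzyme gene Ube2f from 73.2 to 84.6 TPM and Dcun1d2 from 28.8 to 32.6 TPM. With the sex score as covariate Nedd8 was not called (0.414, limma adjusted p = 0.172) and Rnf7 stood at 0.028 (adjusted p = 0.91). That fit can hardly tell sex from genotype. Among 20 adaptors and substrate receptors, 3 were called higher and 4 lower (20.7% and 31.9% of all tested genes), at a median of 0.04. The authors' deposited table called 7 higher and 6 lower (27.9% and 26.1%). Ddb2, a DNA damage receptor of CUL4 ligases, fell from 22.8 to 12.3 TPM, Skp1a from 523.3 to 465.9 TPM and Fbxw11 from 26.6 to 18.4 TPM. Klhl9 rose from 56.5 to 78.6 TPM.

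**Figure D5:**
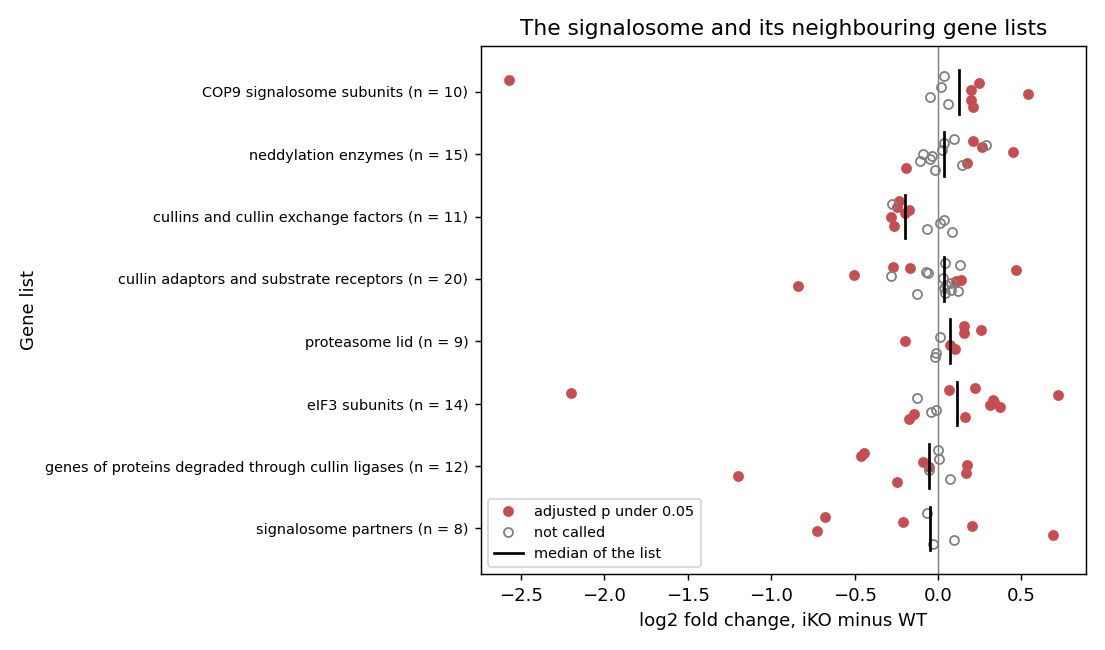
log2 fold change (iKO minus WT) of each tested member of the signalosome and of 7 lists around it, filled red where limma's adjusted p was under 0.05, open grey where it was not, with a black line at the list's median. Cops9 at -2.57 and Eif3k at -2.20 are the lowest points.

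Of 9 proteasome lid genes, 5 were called higher and 1 lower (20.7% and 31.9% of all tested genes), at a median of 0.07. The authors' deposited table called 6 higher and 2 lower (27.9% and 26.1% of the tested genes there). Psmd8 rose from 358.2 to 428.2 TPM, Psmd7 from 206.1 to 229.8 TPM and Psmd13 from 237.9 to 255.1 TPM, and Psmd3 fell from 173.5 to 150.9 TPM. Sem1, the gene of the shortest lid protein, rose from 31.9 to 35.7 TPM. Of 14 eIF3 genes, 8 were called higher and 3 lower (20.7% and 31.9% of all tested genes), at a median of 0.12. The authors' deposited table called 8 higher and 1 lower (27.9% and 26.1%). Eif3i rose from 257.8 to 324.7 TPM, Eif3g from 308 to 382.4 TPM and Eif3m from 241.9 to 282.3 TPM. Eif3k fell from 15.8 ± 2.76 to 2.66 ± 0.602 TPM (SD, n = 4), a log2 fold change of -2.20 (-1.73 in the authors' deposited table).

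Among 12 genes of proteins degraded through cullin ligases, 2 were called higher and 6 lower (20.7% and 31.9% of all tested genes), at a median of -0.05. The authors' deposited table called 3 higher and 4 lower (27.9% and 26.1% of the tested genes there), at a median of -0.005. Cdkn1a fell from 65.4 to 28 TPM, Nfe2l2 from 53.3 to 38.5 TPM and Nfkbia from 600.1 to 441.2 TPM. With the sex score as covariate, a fit that can hardly tell sex from genotype, none of these 3 was called. They stood at -1.061, -0.453 and -0.153 (limma adjusted p of 0.0592, 0.225 and 0.356). Jun was called lower at 1193 against 1267 TPM, but was not called under trimmed mean factors (limma adjusted p = 0.231) and stood at 0.014 once the length and GC trend was subtracted. Of 8 partners of the signalosome, 2 were called higher and 3 lower, near the shares of all genes (20.7% and 31.9%), at a median of -0.05. The authors' deposited table called 4 higher and 3 lower (27.9% and 26.1%). The inositol hexakisphosphate kinase gene Ip6k1 fell from 114.2 to 68.5 TPM while its paralog Ip6k2 rose from 254.7 to 294.2 TPM, and Prkd1 fell from 6.58 to 3.76 TPM. Csnk2b, the regulatory subunit gene of casein kinase 2, was called higher in TPM (68 and 42 TPM) but stood at -0.133 in the authors' deposited table.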

How the data were processed

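Smart-Seq2, which copies whole transcripts into cDNA, was used on RNA of sorted cells before paired-end sequencing, per the labels' protocols. The authors deposited TPM for 55385 genes in 8 libraries, each summing to 1000000. Their second table, per the file headers, gives a mean normalized signal, a log2 fold change, its standard error, the score of the test, and p-values before and after adjustment, under headings that DESeq2 writes. The aligner, quantifier and build used: not given in the sources used here. Every value column matched a sample by name.

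Groups came from the titles. Genes were tested on log2(TPM + 1) by limma 3.58.1 (R 4.3.3; moderation robust, with a trend) for genes at 1 TPM or more in at least 4 libraries, two-sided; fold changes on this scale understate those of low genes. The members and lists were chosen with earlier results of these data known. Named genes were the 10 subunits, Ash2l, up to 4 genes per list, those of lowest unadjusted p among the tested, and the 5 genes closest to Cops9; others (Cops9's neighbours on the chromosome, genes sharing a subunit's locus, Sem1 and Cand1) were named after their values were seen. The procedure was first checked on made-up values of 16413 genes with known changes, 50 genes for each size of change. It recovered 32% of log2 changes of 0.25, 62% of 0.5, 92% of 1 and 96% of 2, and called 0.0617% of unchanged genes. Far fewer genes were changed there than were called in the data, so these shares need not hold here. A gene not called is not shown to be unchanged. Lengths came from GENCODE M21, which held all 10 subunit IDs with the same version, and coding lengths of 82.9% of tested genes; no protein table was used, so protein length is the coding length. Near-identical copies (blastn 2.17.0, 95% identity over 50% of the shorter transcript) were found for Cops9, listed at 0, and Gps1, at 0.0553 (iKO) and 0.19 (WT) TPM. Figures used matplotlib 3.10.9 in Python 3.11.15. Alternatives were the replicate block, leaving out each library, pseudocounts, filters, scalings, array weights, the sex score, a loess trend and the deposited comparison.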

Additional observations from a re-analysis of the deposited data

Results flagged for a closer look

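Of 88 groups of 4 libraries examined (each named gene in each group), 7 held a library whose gap to its nearest neighbour exceeded Dixon's 95% limit; chance alone gives about 1 in 20. Among the subunits, only Cops2 had one, with iKO replicate 4 at 68.9 TPM and the next library at 73.6 TPM. Rnf7 stood at 129 TPM in WT replicate 1 and at 121 TPM in the next library. Cul4b stood at 7.71 TPM in iKO replicate 2 (next 7.3 TPM), and Eif3g at 388 TPM in the same library (next 381 TPM). Among the genes closest to Cops9, Gm10800 stood at 1.24 TPM in iKO replicate 4 (next 2.07 TPM). Slc10a6 stood at 0.0495 TPM in iKO replicate 1 (next 0.148 TPM). Klk1b22 stood at 4.98 TPM in WT replicate 3 (next 3.98 TPM).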

How the results depend on the processing

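The fall of Cops9 kept its direction and call under all 19 alternatives, between -2.629 and -2.215. The counts of 5 subunits higher and 1 lower did not change with any library left out, or with the other pseudocounts, filters or array weights; 6 were higher with trimmed mean factors, with the length and GC trend removed and in the deposited table. The sex score as covariate left 0 higher, at a median of -0.036, and over all genes 195 higher and 228 lower. With it Cops2 (-0.016), Cops3 (-0.056), Cops7b (-0.06), Cops8 (-0.084), Dcun1d2 (-0.173) and Cul1 (0.102) reversed, and 25 of the 28 list genes named were no longer called, nor was Ash2l; the score separates the groups completely. Small differences reversed for Cops3 without iKO replicate 2 (-0.005, up to 0.124 without another library) and in the deposited table (-0.036). The same held for Cops5 with trimmed mean factors (0.023) and in the deposited table (0.041). Cops7b reversed without WT replicate 2 (-0.002) or 4 (-0.018, up to 0.057 without another library), and Jun after the length and GC trend (0.014). The difference of Csnk2b was not small. It stood at 0.689 in the main fit (limma adjusted p = 0.000594) and at -0.133 in the deposited table (adjusted p there 0.352), so the 2 sources conflict. The cause of these reversals was not tested. The log2 ratio of the summed TPM of all 10 was 0.1041 with trimmed mean factors and -3e-04 with quantile normalization; without Cops9 it was 0.3258 and 0.2193. Replicate numbers did not pair the libraries (correlations of same-numbered deviations -0.044 to 0.001, none the highest of its library), and with the replicate block 5 subunits were called higher and 1 lower, with 3170 and 4927 genes in all. TPM keep no depth, so counting error is unknown.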
